A study of Mus musculus with 4 samples.

Results

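Chemokines are small secreted proteins that bind G-protein-coupled receptors on leukocytes and direct their migration. They are sorted by the spacing of cysteines near the amino terminus into CC, CXC, C and CX3C ligands. Group 2 innate lymphoid cells (ILC2s) are tissue lymphocytes without antigen receptors that answer epithelial alarmins such as IL-33 with type 2 cytokines. 8 chemokine ligands were examined here: the CC ligands Ccl1, Ccl3, Ccl4, Ccl5, Ccl17 and Ccl22, the CXC ligand Cxcl2 and the C ligand Xcl1. They were chosen by name, and all 8 were found among the 22554 genes of the count table.

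The cells were sorted from the lungs of BALB/c mice (BALB/cByJ in the methods of the study) aged 6 weeks. All of them were cultured with IL-2, IL-7 and IL-33, in the presence of vehicle (labeled Control) or of compound 5D, a small molecule that blocks Orai calcium channels, with 2 libraries per group. IL-33 was therefore present in every library, and no resting ILC2s enter the comparison. The labels give no dose for these cultures and do not say whether the libraries of a group came from separate mice, so p-values measure only the spread between these libraries, which may be technical. Libraries held 20096513 to 28697196 rounded counts on genes, and both 5D libraries were deeper than both vehicle libraries. All 12 listed ILC2 markers were counted in every library, from a mean of 10.8 normalized CPM for Thy1 to 4597 for Il5, the cytokine of eosinophil growth. Normalized CPM express each gene's count as a proportion of its library's total, with upper quartile scaling.

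All 8 ligands were sparse. Summed over the 8 genes, the level was 2.497 and 3.85 normalized CPM for vehicle replicates 1 and 2, and 8.03 and 3.53 for 5D replicates 1 and 2. Means ± SD of each pair were 3.17 ± 0.955 (vehicle) and 5.78 ± 3.18 (5D), and vehicle replicate 2 lay above 5D replicate 2. To compare different genes, levels were also taken per kilobase of merged exons, retained introns included. Cxcl2 has 1 merged exon as long as its whole gene (2068 bases), and Ccl1 has 12 over 129034 bases. The places of Cxcl2 and Ccl1 therefore depend on these gene models. The order of the mean levels was Ccl3 (1.94 normalized CPM per kilobase), Ccl4 (1.57), Ccl5 (0.657), Cxcl2 (0.502), Ccl17 (0.120), Xcl1 (0.0823), Ccl22 (0.0515) and Ccl1 (0.0269). Cxcl2 and Ccl17 did not overlap over the 4 libraries (lowest Cxcl2 value 0.290, highest Ccl17 value 0.287), and every other pair of neighbours in this order did. On the same scale the ILC2 cytokine genes Il5 and Il13 stood at 2991 and 142. In bulk RNA, fewer cells that express a gene and less of its RNA per cell cannot be told apart.

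3 of the 8 genes were too rare to test. Ccl1, Ccl17 and Xcl1 had summed normalized counts of 6.30, 6.12 and 4.26, under the minimum of 10, while Ccl22 passed narrowly at 11.9 through its reads in a single library. Ccl3, Ccl4, Ccl5 and Cxcl2 passed with 62.5 to 147. Among the 5 tested genes, 0 passed an adjusted p-value of 0.05 in edgeR's quasi-likelihood test, where 0.0963% of all genes tested did (0.0283% higher and 0.068% lower under 5D). At an unadjusted p-value under 0.05 there were 2, Ccl4 and Ccl22, against 7.34% of all genes. Both also met the fold change of at least 2, which 2.02% of genes did (0.941% higher under 5D). limma-voom gave 0 adjusted calls (0.181% of all genes) and 1 at an unadjusted p-value under 0.05 (7.44%). DESeq2 gave no adjusted p-value for any of the 5, with 0.685% of the genes that had one called, and 0 at an unadjusted p-value under 0.05 (4.41%). The median log2 fold change of the 5 genes was 0.49, with Ccl22 fitted or set against 3 counts per vehicle library, beside -0.0016 over all 17650 genes. Ccl22 passed the filter only through a 5D library and so had to lie higher under 5D.

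**Figure D1:**
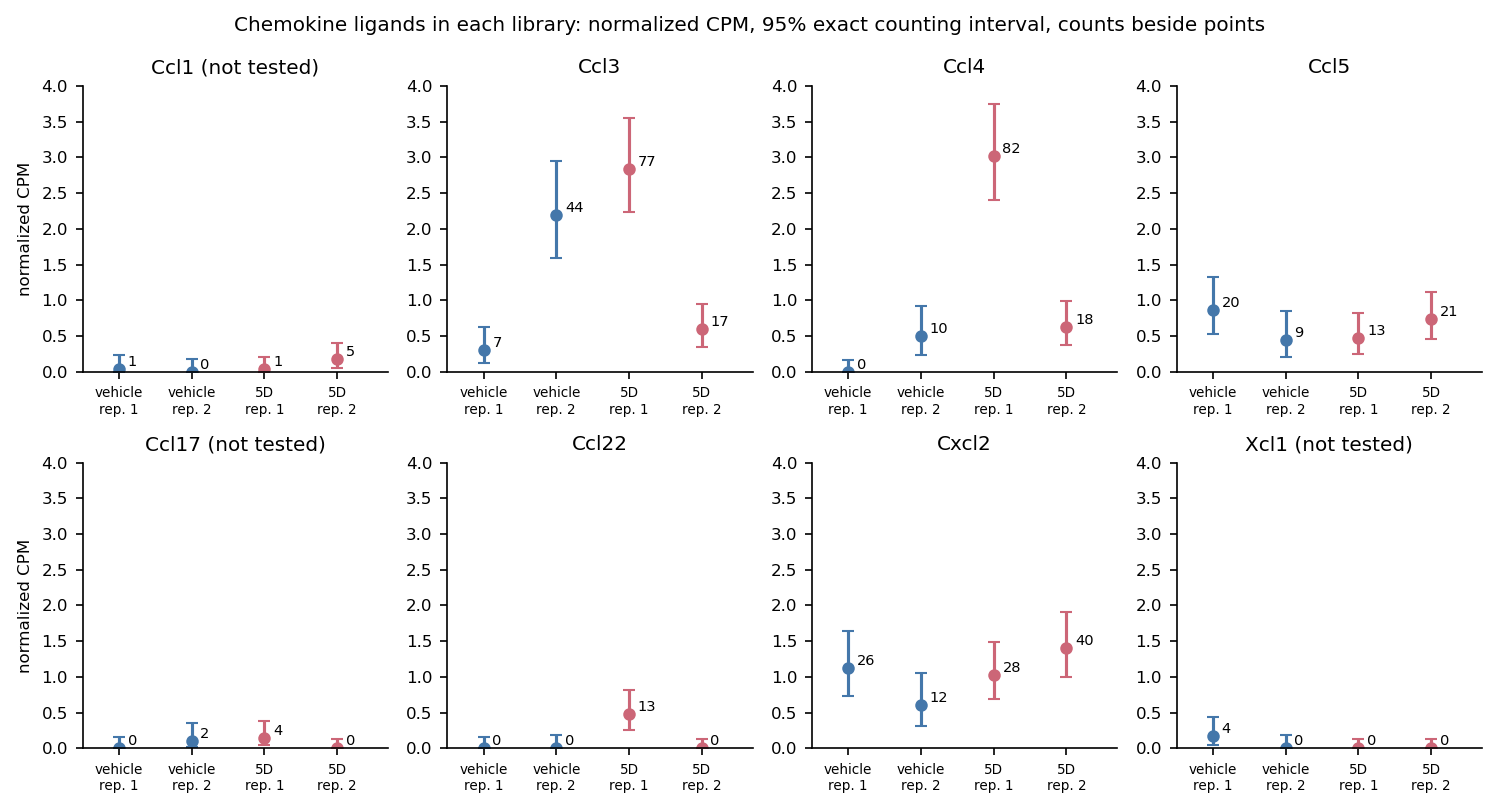
Normalized CPM (y axis) of the 8 chemokine ligands in the 2 vehicle (blue) and 2 compound 5D (red) libraries, with 95% exact binomial intervals that cover counting error only, and the rounded count beside each point. Ccl3 and Ccl4 differ widely within a group, with 7 and 44 counts of Ccl3 under vehicle, while Ccl1, Ccl17 and Xcl1 stay at 5 counts or fewer in every library.

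The most abundant of the 8 genes per length were Ccl3 and Ccl4, which encode the macrophage inflammatory proteins MIP-1 alpha and MIP-1 beta. Both attract monocytes and T cells, and Ccl3 does so in part through Ccr1. Ccl3 (ENSMUSG00000000982.5) lies on the minus strand of chromosome 11 of mm10 from 83647844 to 83649355, and Ccl4 (ENSMUSG00000018930.3) on the plus strand from 83662584 to 83664683. The gap between them is 13.2 kb. The promoter of Ccl3 is shown because this gene was the one with the most reads, and that of Cxcl2 because it alone held a match to the NF-kB consensus. Both are the bases before the RefSeq start (GRCm38.p6), at chr11:83649379-83649628 on the minus strand and chr5:90903649-90903870 on the plus strand, the latter cut where the GENCODE gene begins. Capitals mark GGAAA or its reverse complement TTTCC, the core letters bound by NFAT, the factor that calcium and calcineurin activate.

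Ccl3: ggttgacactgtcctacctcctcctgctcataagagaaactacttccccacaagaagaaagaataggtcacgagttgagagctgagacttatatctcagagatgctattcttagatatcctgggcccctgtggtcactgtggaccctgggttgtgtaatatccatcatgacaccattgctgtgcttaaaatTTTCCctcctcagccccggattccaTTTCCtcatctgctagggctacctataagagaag

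Cxcl2: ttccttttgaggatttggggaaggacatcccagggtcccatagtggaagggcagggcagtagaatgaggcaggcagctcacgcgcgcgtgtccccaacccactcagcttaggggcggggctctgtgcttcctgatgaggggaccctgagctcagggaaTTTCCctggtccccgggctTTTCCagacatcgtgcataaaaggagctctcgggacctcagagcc

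RefSeq promoters were found for 6 of the 8 genes, with none for Ccl4 and Ccl5. Over 250 bases before the start, Ccl1 held 3 matches to GGAAA on either strand, Ccl3 and Cxcl2 held 2 each, Ccl17 and Xcl1 held 1 each, and Ccl22 held 0. Of all 32851 promoters of this length, 55.6% held at least 1. The NF-kB consensus was matched at 2 overlapping positions in Cxcl2, from -97 to -88 and from -96 to -87, and at 0 positions in the other 5. Both also cover the GGAAA match from -92 to -88. Positions are counted from the RefSeq start, which for Cxcl2 lies past the last printed base. The NF-kB consensus was found in 3.90% of all promoters. TGANTCA, the letters bound by AP-1, was found in none of the 6 and in 6.75% of all promoters.

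Ccl3 was counted 7 and 44 times under vehicle, and 77 and 17 times under 5D. In normalized CPM, vehicle replicates gave 0.301 and 2.20 and 5D replicates 2.84 and 0.595, so vehicle replicate 2 and 5D replicate 1 were high, the other libraries were low, and the groups overlapped. Within a group the level differed 7.30-fold under vehicle and 4.77-fold under 5D, and the exact binomial intervals of the libraries did not overlap in either group, so the difference within each group exceeded counting error. The log2 fold change was 0.48 (SE 0.80, 95% interval -1.27 to 2.22, adjusted p = 0.943 by edgeR). It turned to -0.37 without vehicle replicate 1 and to -1.05 without 5D replicate 1.

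Ccl4 had 0 and 10 counts under vehicle and 82 and 18 under 5D. In normalized CPM, vehicle replicates gave 0 and 0.4997 and 5D replicates 3.02 and 0.630, with no overlap of the groups. Of all genes tested, 37.6% had groups that did not overlap, and 18.7% had 5D on top. The count of 0 allows a level of up to 0.129 normalized CPM (3 counts). Means ± SD of each pair were 0.250 ± 0.353 and 1.83 ± 1.69, and the log2 fold change was 2.91 (SE, the standard error, 1.00, 95% interval 0.72 to 5.10). Ccl4 had the smallest unadjusted p-value of the 5 tested genes, and its adjusted p = 0.555 by edgeR did not pass. The upper vehicle library and the lower 5D library differed by less than counting error, with intervals of 0.240 to 0.919 and 0.373 to 0.995 normalized CPM. The log2 fold change ran from 1.36 without 5D replicate 1 to 8.59 without vehicle replicate 2, where the lone vehicle library holds 0 counts and the adjusted p-value was 7.78e-06 by edgeR.

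The proportion of Ccl4 to Ccl3 was examined after these values were seen, because a ratio within a library does not depend on its depth. Ccl4 made up 0 of 7 reads of the pair in vehicle replicate 1, which allows a share of up to 42.9%. It made up 18.5% of 54 reads in vehicle replicate 2 (exact binomial interval 9.25% to 31.4%). In 5D replicate 1 the share was 51.6% of 159 reads (43.5% to 59.6%), and in 5D replicate 2 it was 51.4% of 35 reads (34.0% to 68.6%). The 5D libraries had near-equal shares at levels of Ccl3 that differed 4.77-fold, and both intervals lay above that of vehicle replicate 2. The share of up to 42.9% allowed in vehicle replicate 1 reached into the interval of 5D replicate 2. No test was made, since pairs of libraries allow no exact permutation p-value below 0.333.

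Ccl5 (RANTES), a ligand of Ccr1 and Ccr3 that is typical of cytotoxic lymphocytes, lies on chromosome 11 from 83525778 to 83530518, and the stretch from Ccl5 to Ccl4 spans 138.9 kb. It had 20 and 9 counts under vehicle and 13 and 21 under 5D. Mean levels ± SD of each pair were 0.655 ± 0.291 and 0.607 ± 0.181 normalized CPM, the groups overlapped, and the libraries of a group differed by less than counting error. The log2 fold change was -0.12 (SE 0.64, 95% interval -1.52 to 1.28, adjusted p = 0.993 by edgeR), and it turned to 0.43 without vehicle replicate 1 and to 0.15 without 5D replicate 1. The libraries with the most Ccl5, vehicle replicate 1 and 5D replicate 2, were those with the least Ccl3, but within each group this order of Ccl5 lay inside counting error.

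Ccl17 (TARC) and Ccl22 (MDC) are the ligands of Ccr4, which draw Th2 cells and are made mainly by dendritic cells and macrophages. Both lie on chromosome 8, Ccl22 from 94745590 to 94751699 and Ccl17 from 94810453 to 94812036. Ccl17 had 0 and 2 counts under vehicle and 4 and 0 under 5D, and the group means were below the level of 3 counts per library, so no fold was computed. Ccl22 had 0 counts in both vehicle libraries, 13 in 5D replicate 1 and 0 in 5D replicate 2. The mean of the 5D libraries was 1.72-fold the level of 3 counts per vehicle library, and the adjusted p-value was 0.677 by edgeR. This difference rests on 5D replicate 1 alone, since the other 3 libraries held no read of the gene.

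Ccl1, the ligand of Ccr8, had 1 and 0 counts under vehicle and 1 and 5 under 5D. Its gene model in GENCODE M21 runs from 82176657 to 82305690 on chromosome 11, because 1 of 3 transcripts spans 129034 bases while the others span 3156 or 3154, and reads in the added exons would count for Ccl1. Xcl1 (lymphotactin, chromosome 1 from 164931644 to 164935527), the ligand of Xcr1 and a product of NK and T cells, had 4 and 0 counts under vehicle and 0 in both 5D libraries. An exon of Xcl1 overlaps the antisense gene Gm20743 by 98 nt, and the labels do not say that reads were counted by strand. Neither Ccl1 nor Xcl1 exceeded the level of 3 counts per library in the mean of either group, and a difference was not detectable at this depth.

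Cxcl2 (MIP-2, chromosome 5 from 90903871 to 90905938), which attracts neutrophils through Cxcr2, had the smallest standard error among the 5 tested genes of the 8. The deposited estimates were 25.6 and 11.9 counts under vehicle and 27.7 and 40.2 under 5D. They are not whole, and no stretch of at least 150 nt at 95% identity was found in another gene. Mean levels ± SD of each pair were 0.860 ± 0.368 (vehicle) and 1.22 ± 0.260 (5D) normalized CPM, and 5D replicate 1 lay below vehicle replicate 1. The log2 fold change was 0.49 (SE 0.50, 95% interval -0.62 to 1.60, adjusted p = 0.897 by edgeR). It lay between 0.12 and 1.01 when single libraries were left out.

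**Figure D2:**
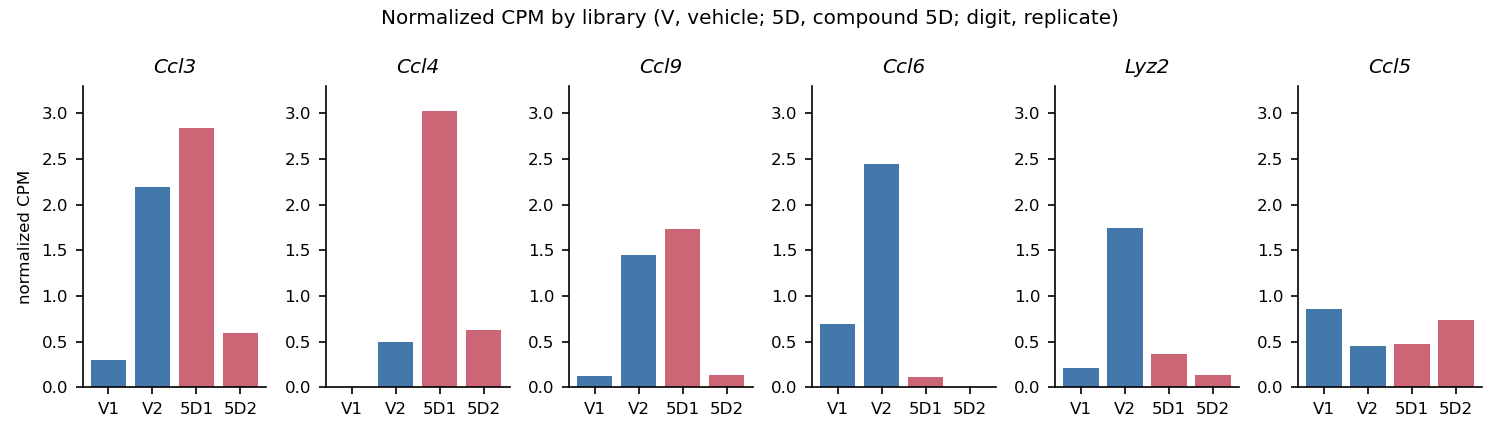
Normalized CPM (bars, y axis from 0) of Ccl3, Ccl4, Ccl9, Ccl6, Lyz2 and Ccl5 in vehicle replicates V1 and V2 and compound 5D replicates 5D1 and 5D2. Ccl3 and Ccl9 are high in V2 and 5D1, and Ccl6 and Lyz2 are highest in V2. Ccl5 is lowest in V2, where it differs from 5D1 by less than counting error. Lyz2 is the only macrophage marker drawn. Cd68, the largest of that list, was instead higher in both 5D libraries.

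Ccl9 and Ccl6, monocyte-attracting CC ligands typical of myeloid cells, lie between Ccl5 and Ccl3 on chromosome 11. Ccl9 had 3 and 29 counts under vehicle and 47 and 4 under 5D, and holds repeat stretches near-identical to 7 other genes. It was high in the libraries where Ccl3 was high. Ccl6 had 16 and 49 counts under vehicle and 3 and 0 under 5D. The 5D level of Ccl6 was at least 14.6-fold lower against 3 counts per library, with an adjusted p = 0.219 by edgeR that passed without a filter (0.0310) and without vehicle replicate 1 (3.48e-06). Over single libraries left out, the bound ran from 6.39-fold without vehicle replicate 2 (adjusted p = 0.297 by edgeR) to 22.7-fold without vehicle replicate 1. Markers of myeloid cells were counted beside these genes. Of 10 listed macrophage and monocyte markers, 5 were in the table and none of these was at 0 in all libraries. Their summed level was 3.32 and 6.25 normalized CPM under vehicle and 4.75 and 4.27 under 5D. Cd68, a lysosomal protein of macrophages and the largest of the list, had 63 and 73 counts under vehicle and 109 and 114 under 5D, with both 5D libraries higher in normalized CPM (log2 fold change 0.34, adjusted p = 0.861 by edgeR). Cd14 had 8 and 10 against 10 and 3. Lyz2, lysozyme of macrophages and neutrophils, had 5 and 35 counts under vehicle and 10 and 4 under 5D. Adgre1 (F4/80) had 0 and 5 against 0 and 1, and Csf1r had 1 and 2 against 0 and 0. Of 5 neutrophil markers in the table, S100a9 was at 0 in all 4 libraries and the summed level was 0.699 to 1.45 normalized CPM. Mmp8, the largest of them, had 16 and 17 counts under vehicle and 15 and 14 under 5D. Ly6g had 8 and 0 against 6 and 6, Csf3r 0 and 9 against 0 and 0, and S100a8 0 and 3 against 0 and 0. The part of such cells in the reads of Ccl3, Ccl4, Ccl6 and Ccl9 was not tested.

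Cxcl3 exceeded each of the 8 genes per kilobase, with a mean of 5.60 normalized CPM. Of 30 further ligands listed, 18 were in the table and 8 passed the filter. Cxcl3, a neutrophil-attracting relative of Cxcl2, stood at 18.2 ± 1.85 (vehicle) and 21.003 ± 1.51 (5D) normalized CPM (mean ± SD of each pair), and made up 51.4% to 66.4% of all ligand reads in a library. Ccl25, the ligand of Ccr9, had 7.57 ± 1.17 and 5.80 ± 0.442, and its exons overlap Elavl1 on the other strand. The 8 genes made up 7.61% (exact binomial interval 5.83% to 9.73%) and 11.7% (9.35% to 14.4%) of ligand reads under vehicle and 20.4% (17.98% to 22.9%) and 11.8% (9.69% to 14.1%) under 5D. Vehicle replicate 2 and 5D replicate 2 thus had like shares. The shares are of reads and are not corrected for length. Merged exons measure 3.5 kb for Cxcl3 and 7.4 kb for Ccl25, against 0.77 kb for Ccl3 and 0.66 kb for Ccl4. Per kilobase, Ccl25 (0.898 normalized CPM) lay below Ccl3 (1.94) and Ccl4 (1.57) in the mean. Without the correction its mean was 6.69 normalized CPM, above Ccl3 (1.48) and Ccl4 (1.04). The length of Ccl25 joins 11 merged exons from 10 transcripts, so its place per kilobase depends on this gene model. Of the 8 further ligands tested, 0 passed an adjusted p-value of 0.05 by edgeR, with 1 at an unadjusted p-value under 0.05 (Ccl6, lower, beside 3.84% of all genes), and their median log2 fold change was -0.23. limma-voom and DESeq2 gave 0 adjusted calls and 1 unadjusted call each, and DESeq2 had an adjusted p-value for 1 of the 8. Cxcl3 had a log2 fold change of 0.20 (95% interval -0.09 to 0.50), Ccl25 of -0.39 (-0.85 to 0.08), Cxcl16 of -0.07 (-1.65 to 1.52) and Ccl9 of 0.27 (-1.97 to 2.504).

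**Figure D3:**
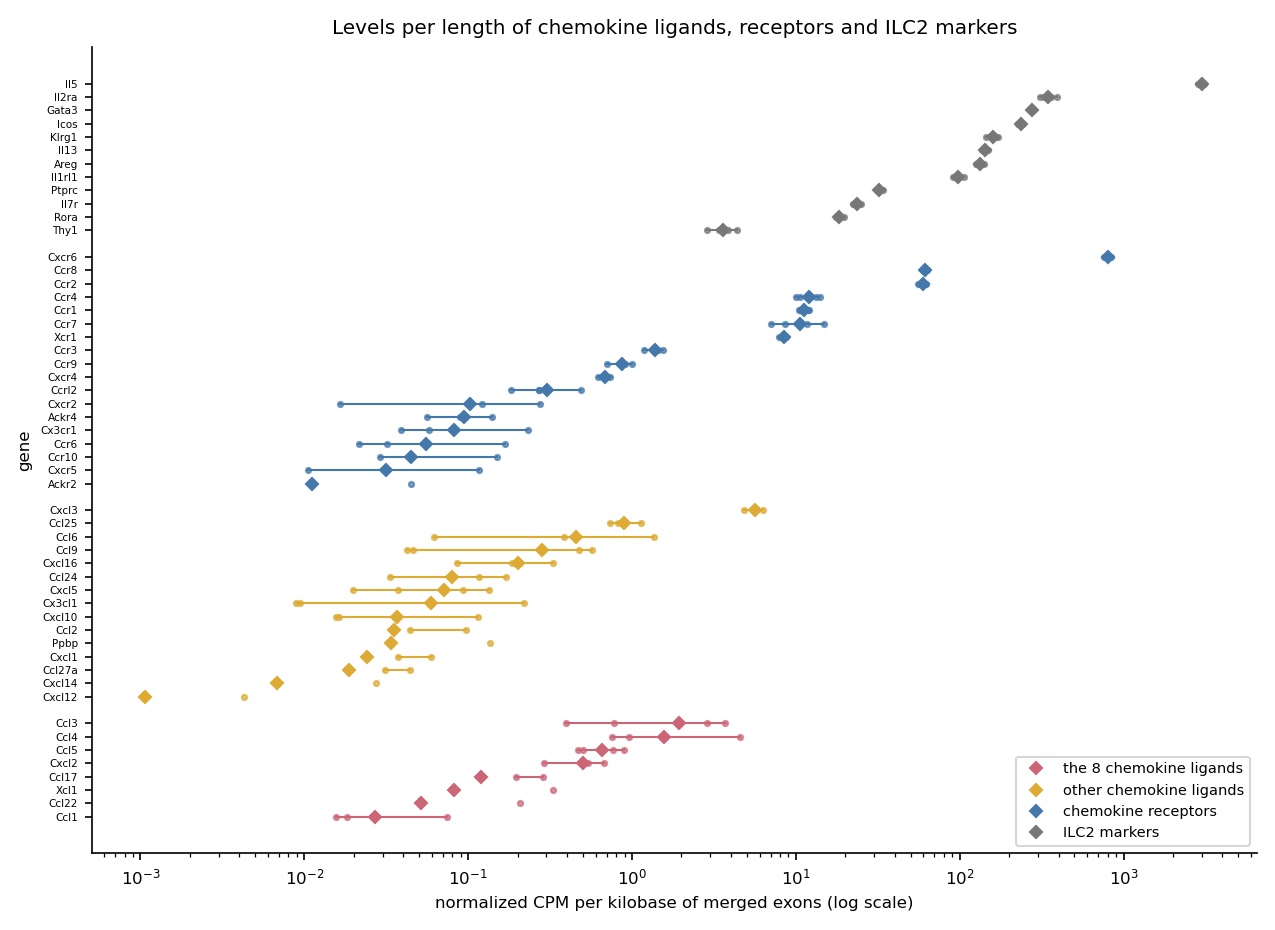
Mean level (diamonds) and level in single libraries (dots, joined by a line) in normalized CPM per kilobase of merged exons (log x axis) of the 8 chemokine ligands, 15 other ligands, 18 receptors and 12 ILC2 markers. Libraries at 0 cannot be drawn on a log axis but enter the mean. The 8 ligands lie below 2 on average, the receptor Cxcr6 at 799 and Il5 at 2991.

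Several receptors for these ligands had higher levels per length than the ligands. Of 23 listed receptors, 20 were in the table and 17 were tested. Per kilobase, Ccr8 (61.6 normalized CPM), Ccr4 (11.9), Ccr1 (11.2) and Xcr1 (8.40) stood above all 8 ligands in the mean, whereas Cxcr2 stood at 0.103. The highest receptors were Cxcr6 at 799, which binds Cxcl16, and Ccr2 at 59.4, beside Ccr8. Xcr1, otherwise a marker of cross-presenting dendritic cells, had 889 and 748 counts under vehicle and 955 and 1109 under 5D, beside 0 to 4 counts of its ligand Xcl1.

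With 5D, 0 of the 17 receptors passed an adjusted p-value of 0.05 by edgeR. limma-voom called 0 with 6 at an unadjusted p-value under 0.05 (7.44% of all genes), and DESeq2 called 1 of the 8 receptors to which it gave an adjusted p-value, with 4 of 17 at an unadjusted p-value under 0.05 (4.41% of all genes). By edgeR, at an unadjusted p-value under 0.05, 3 were lower and 1 higher, beside 3.84% and 3.5% of all genes tested. Ccr4, the receptor of Ccl17 and Ccl22, had 1007 and 818 counts under vehicle and 838 and 930 under 5D. In normalized CPM these are 42.1 ± 1.75 and 31.7 ± 1.17 (mean ± SD of each pair), without overlap of the groups, as in 18.8% of genes under vehicle on top. The fitted difference of -0.41 on the log2 scale (SE 0.10, adjusted p = 0.356 by edgeR) stayed between -0.45 and -0.37 over the alternatives. Ccr7, which guides cells to lymph nodes, had 26.2 ± 4.42 and 15.4 ± 2.06, a difference of -0.77 on the log2 scale (SE 0.15, adjusted p = 0.165 by edgeR). It was called by DESeq2 (adjusted p = 0.00911), without a filter (0.0303 by edgeR) and without vehicle replicate 1 (1.31e-05 by edgeR).

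The remaining receptors near the threshold were sparse. Cxcr2, the receptor of Cxcl2, had 0 and 1 counts under vehicle and 10 and 24 under 5D, at least 4.33-fold higher against 3 counts per vehicle library, with an adjusted p = 0.476 by edgeR. Without 5D replicate 2 the bound was 2.64-fold, and the gene then did not pass the filter. Its transcript holds repeat stretches that are near-identical to many genes. Cx3cr1 had 6 and 21 counts under vehicle and 0 and 5 under 5D (log2 fold change -2.80, adjusted p = 0.641 by edgeR), and its exons overlap Gm33858 on the other strand. The value ran from -6.94 without 5D replicate 2 to -1.50 without vehicle replicate 2.

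Receptors with many reads were measured closely. Ccr8, the receptor of Ccl1, stood at 71.9 ± 2.49 and 72.9 ± 0.228 normalized CPM (mean ± SD of each pair), with an interval of the log2 fold change from -0.14 to 0.18. The intervals were -0.05 to 0.40 for Ccr1, -0.25 to 0.19 for Xcr1 and -0.02 to 0.16 for Cxcr6. These are narrower than any interval among the 8 ligands, where the narrowest, that of Cxcl2, ran from -0.62 to 1.60.

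**Figure D4:**
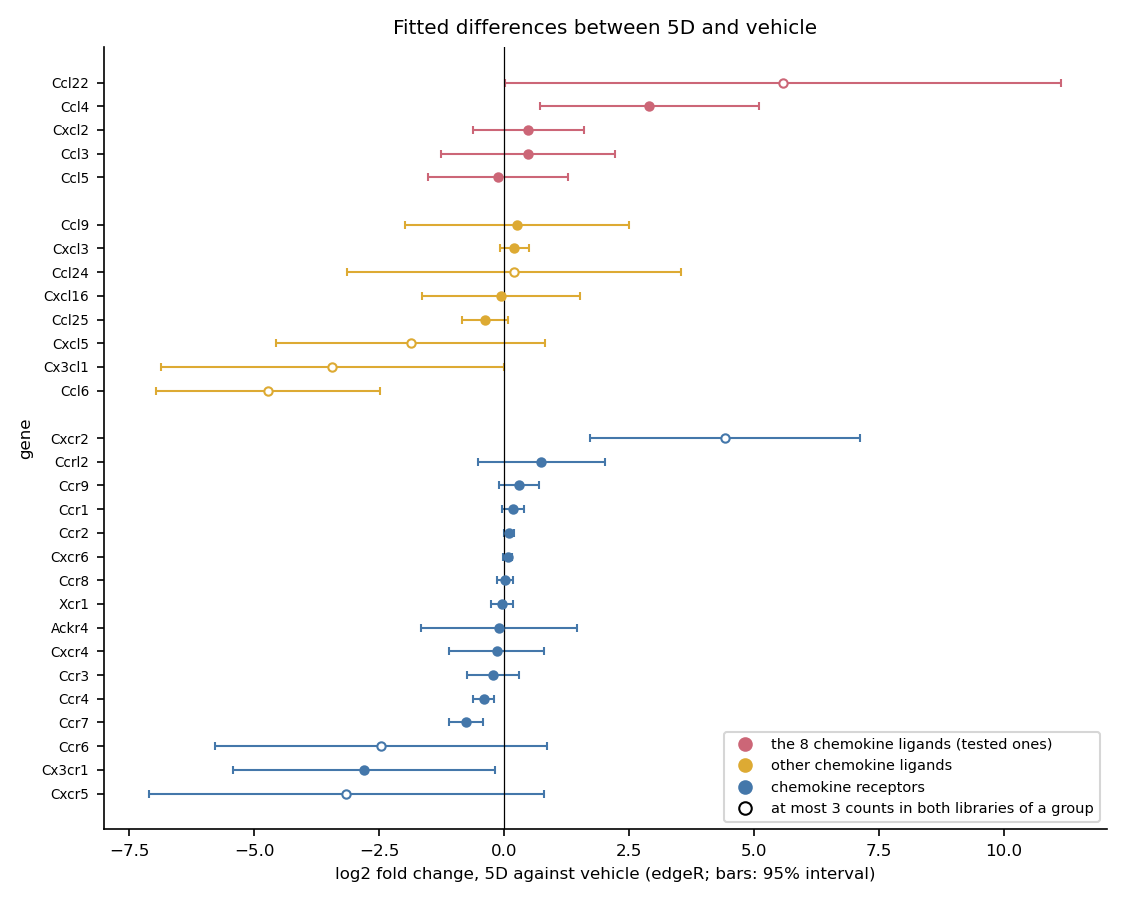
Log2 fold change of 5D against vehicle (x axis) with its 95% interval from edgeR for tested genes of the 8 chemokine ligands, other ligands and receptors. Open circles mark genes whose counts in a group are all 3 or fewer, whose fitted value is no bound, and 0 of the genes drawn passed an adjusted p-value of 0.05.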

How the data were processed

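RNA of sorted lung ILC2s was measured in 2 vehicle and 2 compound 5D libraries. Libraries were made with a low-input cDNA kit (SMARTer), for which the paper gives 10 pg and the labels 10 ng of RNA. The authors aligned reads with STAR to mm10 with GENCODE M21 and deposited estimated counts per gene from Partek, before normalization. The labels name CASAVA 1.8.2 and STAR 2.6.1. The values were rounded here to whole counts. Per library, 54.9% to 58.4% of values lay within 0.001 of a whole number. Samples were grouped by title. Stop positions in the table were 1 base past the GENCODE end in all 80 listed genes, so GENCODE M21 coordinates are printed.

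Counts were scaled by upper quartile factors. A gene was dropped if its normalized counts averaged under 1 or summed to under 10, as in the study, which gave 17650 tested genes. 5D was compared under vehicle by edgeR 4.0.16 (quasi-likelihood, two-sided, Benjamini-Hochberg over all tested genes) in R 4.3.3, since the Gene Set Analysis of Partek was not run here. Intervals of fold changes use the fit's standard error and degrees of freedom. limma 3.58.1 (voom), DESeq2 1.42.0, TMM, DESeq2 size factors, no filter, filterByExpr, unrounded counts, the replicate number as a block and leaving out each library were alternatives. Lengths are merged GENCODE exons, retained introns included. Near-identical stretches were searched with BLAST 2.17.0. On simulated counts of 5D against vehicle (17266 genes, 200 changed), 86% of 2-fold and 97% of 3-fold changes were called, with 6 unchanged genes called. Changed genes there had at least 10 mean counts. Over all genes, the coefficient of variation between libraries of a group was 8.51%. Ccl3 differed 7.30-fold between the libraries under vehicle and 4.77-fold between those under 5D. The percentages called are over all changed genes and therefore give no power for the chemokine ligands.

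The 8 genes and all lists were chosen with earlier results of these data known. Besides the 8, the genes named are the 5 most abundant further ligands and receptors, receptors of the 8 ligands, and listed ligands, receptors and signaling genes with an unadjusted p-value under 0.05. Markers, Adgre1 and Csf1r among them, were named after their values were seen. Listed genes outside the table were not analysed here, and 1 listed receptor, which enters the receptor counts, is not reported by name. Exact binomial intervals (95%) and the 3-count floor cover counting error only.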

Additional observations from a re-analysis of the deposited data

How the results depend on the processing

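Leaving out single libraries leaves 1 library in a group, which edgeR then assumes to vary like the other group. Over these fits, 3 to 73 genes were higher and 12 to 107 lower at an adjusted p-value under 0.05, against 5 and 12 with all libraries, and the 73 and 107 came without vehicle replicate 1 and 32 and 47 without vehicle replicate 2. The counts were 17 and 43 with DESeq2, 9 and 23 with limma-voom, 11 and 35 without a filter, and 7 and 19 with filterByExpr. They were 166 and 191 by the looser rule of 2-fold and an unadjusted p-value under 0.05. With TMM, DESeq2 size factors or unrounded counts they were 5 and 12. Of the 8 ligands, 0 passed in every fit on all libraries. By fitted values, 2 met the looser rule (Ccl4 and Ccl22, the latter through reads in 5D replicate 1 alone). The median over those of the 8 ligands that could be tested ran from 0.42 to 2.48 when single libraries were left out, the upper value without vehicle replicate 2. Of the other ligands, 1 passed without a filter and 0 to 1 when libraries were left out (Ccl6, without vehicle replicate 1). Of the receptors, 1 passed with DESeq2, 1 without a filter and 0 to 1 when libraries were left out (Ccr7 each time). Of the receptor signaling genes, 0 to 1 passed when libraries were left out (Rgs16, without vehicle replicate 1). The sign of Ccl3 turned without vehicle replicate 1 (-0.37) and 5D replicate 1 (-1.05), and that of Ccl5 without the same libraries (0.43 and 0.15, range -0.50 to 0.43 over single libraries left out). The causes of these shifts were not tested.

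The groups share replicate numbers, but nothing says that a number marks a shared mouse or day, and deviations of same-numbered libraries from their group means had a correlation of -0.015 across 14119 genes, which are not independent replicates. With the replicate number as a block, 9 genes were higher and 32 lower, and 0 of the 8 ligands passed. For the 8 ligands depth and the spread within pairs both set limits: 3 counts correspond to 0.105 to 0.150 normalized CPM, and 3 of the 8 could not be tested. The arrangement of the libraries allows no exact permutation p-value below 0.333.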

Other observations

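Genes that carry the signal of chemokine receptors into the cell ranged from sparse to abundant, from 1.05 normalized CPM on average for Rgs16 to 2039 for Coro1a. Of 22 listed genes for G proteins, receptor kinases, arrestins, Rac regulators and RGS proteins, all 22 were tested. By edgeR, 0 passed an adjusted p-value of 0.05 (0.0963% of all genes). At an unadjusted p-value under 0.05, 0 were higher and 1 was lower, beside 3.5% and 3.84% of all genes. limma-voom and DESeq2 likewise gave 0 adjusted calls, with 3 and 1 at an unadjusted p-value under 0.05 (7.44% and 4.41% of all genes). The median log2 fold change was 0.02, and 7 of the 22 had 1 group entirely above the other, beside 37.6% of all genes. The lower gene was Grk2, a kinase that desensitizes G-protein-coupled receptors. It had 7507 and 6992 counts under vehicle and 8309 and 9006 under 5D, a difference of -0.11 on the log2 scale (SE 0.05, adjusted p = 0.674 by edgeR).

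Markers of other lung cells were also counted. Cd4 was at 0 in all libraries, as were the epithelial genes Scgb1a1 and Krt8 and the mast cell genes Ms4a2 and Mcpt4. The summed levels were 25.4 to 28.6 normalized CPM for 6 dendritic cell markers, led by H2-Ab1, and 26.0 to 27.7 for 6 T cell markers, led by Cd3g. They were 46.6 to 71.0 for 5 NK cell markers, led by Gzma, and 4.90 to 8.67 for 7 mast cell and basophil markers, led by Cpa3. For 3 B cell markers, led by Cd79b, they were 15.4 to 20.8, and for 6 epithelial and endothelial markers, led by Epcam, 43.5 to 49.9. The latter sum was mostly Epcam and Pecam1, while Sftpc and Col1a1 had at most 4 counts in any library. Pecam1 stood at 23.7 and 21.3 normalized CPM under vehicle and 19.9 and 15.7 under 5D (log2 fold change -0.34, adjusted p = 0.642 by edgeR). Gzma, a protease of cytotoxic granules, stood at 48.4 and 44.7 normalized CPM under vehicle and 70.3 and 52.4 under 5D, without overlap of the groups and highest in 5D replicate 1 (log2 fold change 0.40, 95% interval 0.12 to 0.67, adjusted p = 0.531 by edgeR). Prf1, another NK cell marker, went the other way and was lowest in that library, with 32 and 27 counts under vehicle and 3 and 43 under 5D. Nkg7 had 10 and 12 against 12 and 23. Ncr1 had 3 and 0 against 5 and 0, and Eomes 7 and 0 against 1 and 0. Ccl3, Ccl4 and Ccl22 were highest in 5D replicate 1, and the part of NK cells in their reads was not tested. Cpa3 had a log2 fold change of 0.25 (95% interval -0.67 to 1.16), and the other leading genes lay between -0.23 and 0.10.

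By their centred log2 levels (pseudocount 0.5 CPM) over the 4 libraries, the genes of at least 10 mean normalized CPM nearest to Ccl4 were Cyp1b1, Arrdc3 and Abcc5, at distances of 1.36, 1.47 and 1.49, where a flat profile lies at 2.02. Those nearest to Ccl22 were Gm8797, Zbtb8a and Tef, at 0.364 to 0.383, where a flat profile lies at 0.840. Ccl22 had reads in 5D replicate 1 alone, and its level there (0.479 normalized CPM) is under the pseudocount. Its distances therefore reflect little beyond a higher level in that library, and shared regulation was not tested. Only 4 libraries enter, and 8737 genes were compared.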
